A study of Saccharomyces cerevisiae with 4 samples.

Results

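RNA polymerase III (Pol III) is built from subunits that it shares with other polymerases and from subunits found in no other enzyme. The genes for these specific subunits were examined here in budding yeast (Saccharomyces cerevisiae) that lacked TRF4. They were taken by systematic name and were RPO31, RET1, RPC82, RPC53, RPC37, RPC34, RPC31, RPC25, RPC17 and RPC11, which makes 10 of the 7445 features in the deposited count table. The mutant group, trf4Δ, consisted of 2 libraries from a strain whose TRF4 gene was replaced by the HphMX4 hygromycin resistance cassette. The wild-type group consisted of 2 libraries, and all 4 shared the W303 strain background. Both groups were grown exponentially at 25 °C in YPDA, a rich glucose medium with added adenine, and ribosomal RNA was depleted from total RNA before sequencing. Nothing in the labels says that the libraries of a group came from separate cultures or clones, so the p-values measure the spread between these libraries only, and no batch is named. TRF4, whose product is the poly(A) polymerase of TRAMP and tags nuclear RNA for degradation by the exosome, is listed in RefSeq as PAP2 and had 21 and 40 counts in trf4Δ, against 8102 and 8468 counts in the wild type.

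As background, Pol III transcribes the tRNA genes, the 5S ribosomal RNA and a small set of other short noncoding RNAs, such as the U6 spliceosomal RNA and the RNA part of the signal recognition particle. At a tRNA gene the assembly factor TFIIIC binds the promoter elements inside the gene and places TFIIIB upstream of it, and TFIIIB then recruits the polymerase. In growing yeast this output is tuned to nutrients together with ribosome production, mainly through the repressor Maf1.

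Transcripts of the Pol III specific subunits were lower in trf4Δ cells, with 1 exception. Of the 10 genes, 9 were lower at a threshold of 0.05 (edgeR, quasi-likelihood F-test, with p-values adjusted by Benjamini-Hochberg over 6372 features), whereas 28.9% of all features tested were called lower. Levels of these 9 genes in trf4Δ ranged from 47.7% of the wild type for RPC17 to 72.5% for RPC34. The remaining gene was RET1, which encodes the second largest subunit and stood at 98.1% of the wild-type level. No member was called higher, against 31.3% of all features, and the count was also 0 at an unadjusted p under 0.05 and with DESeq2. In all, 60.1% of the features were called in one direction or the other. The median log2 fold change of the 10 genes was -0.58, and that of all features was 0.01. These counts and levels hold for TMM scaling, and on library size alone 5 members were called lower, RET1 was called higher and the median of the 10 was -0.26. For the 9 genes called lower, both trf4Δ libraries lay below both wild-type libraries, a pattern found for 40.2% of all features. Each library averages a whole culture, so less RNA in every cell and loss from some of the cells cannot be told apart.

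**Figure D1:**
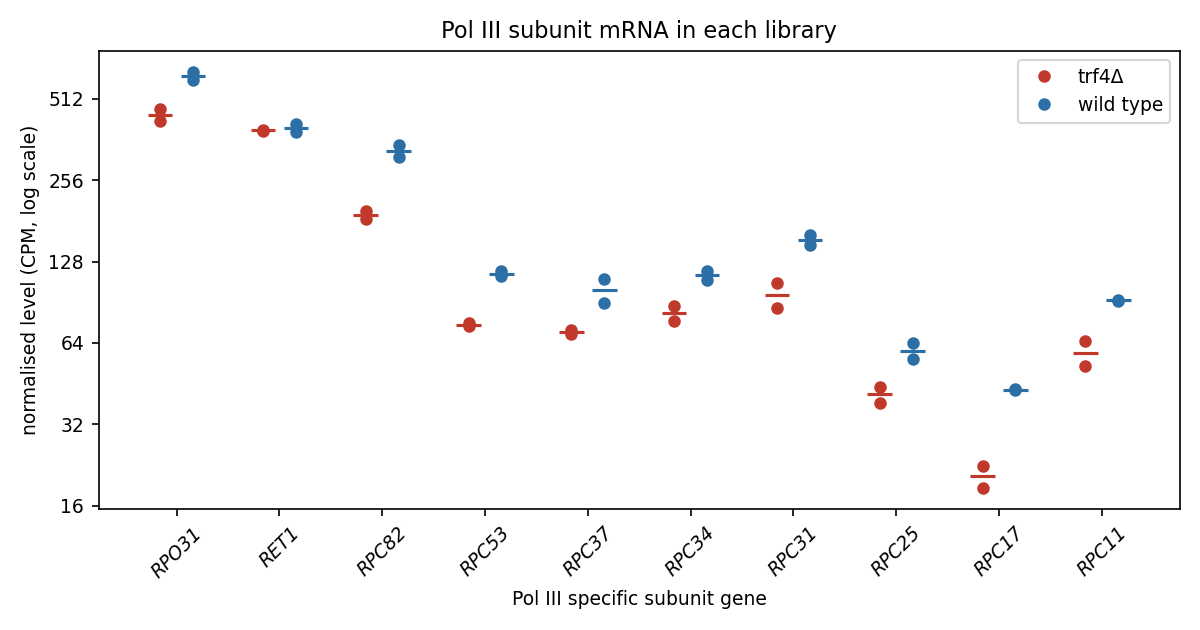
Normalised level of each Pol III specific subunit gene (CPM, log scale) in the 2 trf4Δ and the 2 wild-type libraries. Points are libraries and short lines are group means. The groups are apart for 9 genes and overlap for RET1, at 391 and 393 CPM in trf4Δ and 414 and 385 CPM in the wild type.

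All 10 genes have a single coding exon in RefSeq (build R64, the sequence that the submitters' processing notes name as sacCer3), and none overlaps another annotated gene. Genes for ribosome assembly and for Pol I and Pol III subunits are known to carry a pair of promoter elements, PAC and RRPE, so both were searched in a window of 300 bases around each start codon, 250 before it and 50 from it. PAC was searched as GATGAG and RRPE as AAAATTTT, on both strands. PAC was present in 8 of the 10 windows and in 20.4% of the windows of all 6001 protein-coding genes. RRPE was present in 5 of the 10 and in 9.03% of all windows. These matches were not particular to Pol III, since 6 of the 7 Pol I specific subunits had PAC and 6 had RRPE. Of the 7 Pol II specific subunits, 1 had PAC and 2 had RRPE. Of the 5 subunits common to Pol I, II and III, 0 had PAC and 2 had RRPE, and their median log2 fold change was -0.77. Both motifs together were found in 5 of the 10, namely RET1, RPC82, RPC53, RPC34 and RPC25, and in 4.38% of all windows. The motif CGGGTAA, bound by the general regulatory factor Reb1, was found in 0 of the 10 and in 7.08% of all windows. A match is a description of the letters and not evidence of binding. The windows come from the S288C reference and not from W303.

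Windows of 4 members are given 5′ to 3′ on the strand of the gene, because these members span the range of change. The capitals mark PAC (GATGAG, or CTCATC where it lies on the other strand) and RRPE. RPC17 had the largest decrease and neither motif (chrX:414721-415020, minus strand). RPC82 had the next largest decrease and both motifs (chrXVI:918992-919291, minus strand). RPO31 encodes the largest subunit and had PAC alone (chrXV:544096-544395, minus strand). RET1 was not called and had both motifs only 3 bases apart (chrXV:733408-733707, minus strand).
RPC17: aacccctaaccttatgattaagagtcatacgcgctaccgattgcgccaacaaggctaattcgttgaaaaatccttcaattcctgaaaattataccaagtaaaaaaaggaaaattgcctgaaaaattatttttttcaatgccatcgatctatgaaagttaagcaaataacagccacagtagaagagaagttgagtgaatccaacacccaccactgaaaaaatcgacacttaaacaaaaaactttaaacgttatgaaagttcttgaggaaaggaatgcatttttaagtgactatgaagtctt
RPC82: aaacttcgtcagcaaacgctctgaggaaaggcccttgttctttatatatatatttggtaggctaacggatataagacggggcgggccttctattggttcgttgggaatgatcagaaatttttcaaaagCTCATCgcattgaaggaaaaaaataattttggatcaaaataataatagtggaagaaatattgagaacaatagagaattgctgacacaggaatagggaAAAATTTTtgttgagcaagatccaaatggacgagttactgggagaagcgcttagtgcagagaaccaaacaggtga
RPO31: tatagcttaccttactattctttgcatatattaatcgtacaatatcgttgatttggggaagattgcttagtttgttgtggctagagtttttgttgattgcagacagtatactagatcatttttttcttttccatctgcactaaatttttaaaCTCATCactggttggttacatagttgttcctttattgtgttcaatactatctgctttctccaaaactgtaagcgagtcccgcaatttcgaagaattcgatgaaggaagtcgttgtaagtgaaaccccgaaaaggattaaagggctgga
RET1: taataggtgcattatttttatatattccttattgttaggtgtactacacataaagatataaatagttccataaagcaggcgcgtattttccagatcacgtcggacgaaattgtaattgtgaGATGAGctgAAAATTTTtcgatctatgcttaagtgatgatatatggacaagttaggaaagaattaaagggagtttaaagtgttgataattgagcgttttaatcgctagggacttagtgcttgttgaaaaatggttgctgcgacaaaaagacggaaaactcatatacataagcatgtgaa
Positions are counted from the A of the start codon as 1, with the base before it as -1. PAC lay at -98 to -93 in RPO31, at -129 to -124 in RET1 and at -122 to -117 in RPC82. RRPE followed PAC at -120 to -113 in RET1, while in RPC82 it lay at -25 to -18. In RPC25 the same pair lay close together, with PAC at -194 to -189 and RRPE at -184 to -177. Besides RPC17, the window of RPC11 held neither motif. The RPC17 window also reached 55 bases into a lysine tRNA gene (YNCJ0018W, chromosome X, 414966 to 415038), which is 195 bases away from the RPC17 coding sequence and points away from it.

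Among all tested genes the motif classes had different medians. Genes with both motifs (260 tested) had a median log2 fold change of -0.65, and 78.5% of them were called lower. Genes with PAC alone (902 tested) had a median of -0.09, with 35.9% lower, and genes with RRPE alone (272 tested) a median of -0.34, with 54.0% lower. Genes with neither (4406 tested) had a median of 0.05, with 25.9% lower. Within the first class RET1, at -0.03, lay among the highest 10% of the genes, which began at -0.11, while the other 4 members ranged from -0.79 to -0.46. RPC17, at -1.07, lay among the lowest 10% of the genes with neither motif, which ended at -0.57, and so did RPC11 at -0.65. The motif classes thus did not order the members by their change. The motifs were chosen with the expression results known, and these class values are a description without a test.

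**Figure D2:**
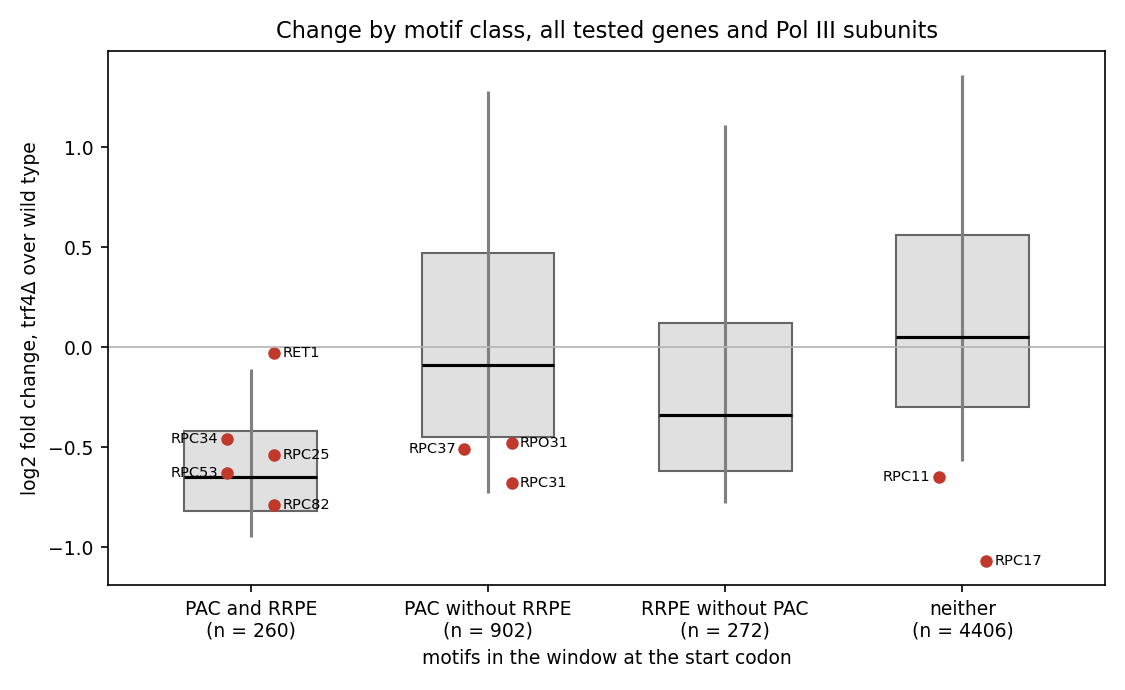
Log2 fold change (trf4Δ over wild type) of all tested protein-coding genes by the motifs in their start codon windows. Boxes run between the quartiles with the median as a line, whiskers leave out the lowest and the highest 10% of the genes, and red points are the Pol III specific subunits. RET1 stands above the whisker of the genes with both motifs, and RPC17 and RPC11 stand below the whisker of the genes with neither.

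The core of the enzyme is formed by RPO31 and RET1, which together enclose the active site. RPO31 (YOR116C, chromosome XV, 539763 to 544145) had 469 and 424 CPM (counts scaled to a common library size, with TMM factors) in trf4Δ, against 646 and 599 CPM in the wild type. RPO31 was thus lower by a log2 fold change of -0.48 (SE 0.10, adjusted p = 0.00385 in edgeR). RET1 (YOR207C, chromosome XV, 730008 to 733457) was at 391 and 393 CPM in trf4Δ, against 414 and 385 CPM in the wild type. The trf4Δ values of RET1 fell inside the wild-type range, and the log2 fold change of -0.03 (SE 0.09) was not called (adjusted p = 0.792 in edgeR).

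Since both are measured in the same libraries, their ratio does not depend on the scaling. RPO31 had 1.20 and 1.08 counts per RET1 count in trf4Δ, against 1.56 and 1.55 in wild-type libraries. The difference was -0.45 on the log2 scale, larger than the gaps between replicates of 0.155 in trf4Δ and 0.00634 in the wild type. An exact two-sided permutation test of this ratio gave p = 0.333, which is the smallest value that 2 libraries against 2 allow. The same test gave the same p for the Pol I and Pol II pairs that follow, so it cannot tell the 3 pairs apart. For comparison, RPA190 and RPA135, the corresponding pair of Pol I, kept a ratio of 1.54 and 1.53 in trf4Δ and 1.47 and 1.52 in wild-type libraries (difference 0.04). In Pol II the ratio of the largest subunit, RPO21, to its partner RPB2 was higher in trf4Δ than in the wild type. It was 0.974 and 0.903 in trf4Δ, against 0.652 and 0.782 in wild-type libraries, so RPO21 had fewer counts than RPB2 in every library.

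The trimer of RPC82, RPC34 and RPC31 contacts TFIIIB and is needed for initiation. RPC82 (YPR190C, chromosome XVI, 917077 to 919041) had 184 and 196 CPM in trf4Δ, against 312 and 346 CPM in the wild type. Its log2 fold change of -0.79 (SE 0.09, adjusted p = 0.00028 in edgeR) was the largest in the trimer. RPC31 (YNL151C, chromosome XIV, 347766 to 348521), an acidic subunit, had 86.4 and 107 CPM in trf4Δ, against 161 and 148 CPM in the wild type, a log2 fold change of -0.68 (SE 0.12). RPC34 (YNR003C, chromosome XIV, 634344 to 635297), whose product binds the Brf1 subunit of TFIIIB, had 77.0 and 87.9 CPM in trf4Δ, against 109.7 and 118 CPM in the wild type. RPC34 changed by -0.46 (SE 0.10, adjusted p = 0.00519 in edgeR), the smallest of the called decreases. The count ratio of RPC82 to RPC34 was 2.39 and 2.23 in trf4Δ, against 2.85 and 2.93 in wild-type libraries.

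RPC53 and RPC37 encode a dimer related to TFIIF of Pol II, which takes part in termination and in repeated initiation. RPC53 (YDL150W, chromosome IV, 183343 to 184611) had 75.7 and 73.7 CPM in trf4Δ, against 113 and 118 CPM in the wild type, and its replicates lay close together in both groups. It changed by -0.63 (SE 0.09, adjusted p = 0.000608 in edgeR). RPC37 (YKR025W, chromosome XI, 487770 to 488618) had 69.3 and 71.7 CPM in trf4Δ, against 110.2 and 90.1 CPM in the wild type. The wild-type libraries of RPC37 were 0.29 apart on the log2 scale, the widest wild-type gap among the members, and its change was -0.51 (SE 0.11). The ratio of RPC53 to RPC37 counts was 1.09 and 1.03 in trf4Δ and 1.02 and 1.31 in wild-type libraries, so the values overlapped.

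RPC25 and RPC17 encode the stalk, which protrudes from the core and is needed for initiation. RPC17 (YJL011C, chromosome X, 414285 to 414770) had the lowest CPM of the members in every library. It was at 18.6 and 22.5 CPM in trf4Δ, against 42.7 and 43.3 CPM in the wild type, and its log2 fold change of -1.07 (SE 0.12, adjusted p = 0.000265 in edgeR) was the largest of the 10. Its counts were 1119 and 1353 in trf4Δ, against 2177 and 2221 in wild-type libraries, so depth did not limit this value. RPC25 (YKL144C, chromosome XI, 175843 to 176481) had 44.1 and 38.5 CPM in trf4Δ, against 63.9 and 55.9 CPM in the wild type, and changed by -0.54 (SE 0.12). Per RPC25 count there were 0.422 and 0.585 RPC17 counts in trf4Δ, against 0.669 and 0.774 in wild-type libraries. The difference of -0.54 in this ratio was only slightly larger than the gap of 0.472 between the trf4Δ libraries.

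RPC11 (YDR045C, chromosome IV, 547978 to 548310) encodes a small subunit related to TFIIS, which cleaves the nascent RNA and acts in termination. It had 52.7 and 65.1 CPM in trf4Δ, against 91.7 and 92.6 CPM in the wild type. RPC11 changed by -0.65 on the log2 scale (SE 0.12, adjusted p = 0.00217 in edgeR). RPC11, RPC31, RPC17 and RPC34 were all higher in the second trf4Δ library than in the first, by 0.19 to 0.31 on the log2 scale, whereas RPO31 and RPC25 were higher in the first, by 0.15 and 0.20. The 2 trf4Δ libraries thus did not differ in the same direction for all members.

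Levels of different genes were compared per kilobase of coding length. RPC11 was the highest in all 4 libraries, at 158 and 195 CPM per kilobase in trf4Δ, against 275 and 278 in wild-type libraries. RPC31 came next in all 4, at 114 and 141 CPM per kilobase in trf4Δ, against 213 and 195 in wild-type libraries. At the low end RPC17 was last in both trf4Δ libraries, at 38.2 and 46.3 CPM per kilobase, and among the lowest 2 in the wild type, at 88.0 and 89.0. The highest level exceeded the lowest 4.14- and 4.22-fold in trf4Δ, against 3.13- and 3.18-fold in wild-type libraries. RET1 ranked 3 of 10 in each trf4Δ library and 6 of 10 in each wild-type library. The trf4Δ levels of RPO31 and RPC82 overlapped, as did those of RPC37 and RPC34, so the order of these neighbours was not resolved, and in the wild type the same held for RET1, RPC37 and RPC34, and for RPC53, RPC25 and RPC17.

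Set against RET1, every other member was lower in trf4Δ, with no overlap between the groups. This comparison is free of scaling, and it uses per-length levels within each library. RPC82 stood at 0.827 and 0.876 of RET1 in trf4Δ, against 1.33 and 1.57 in wild-type libraries. RPC17 stood at 0.338 and 0.406 of RET1 in trf4Δ, against 0.733 and 0.797 in wild-type libraries. RPO31 and RPC82 were thus below RET1 in trf4Δ and above it in the wild type. RET1 was picked as the point of comparison after its values were seen, so these ratios are a description.

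**Figure D3:**
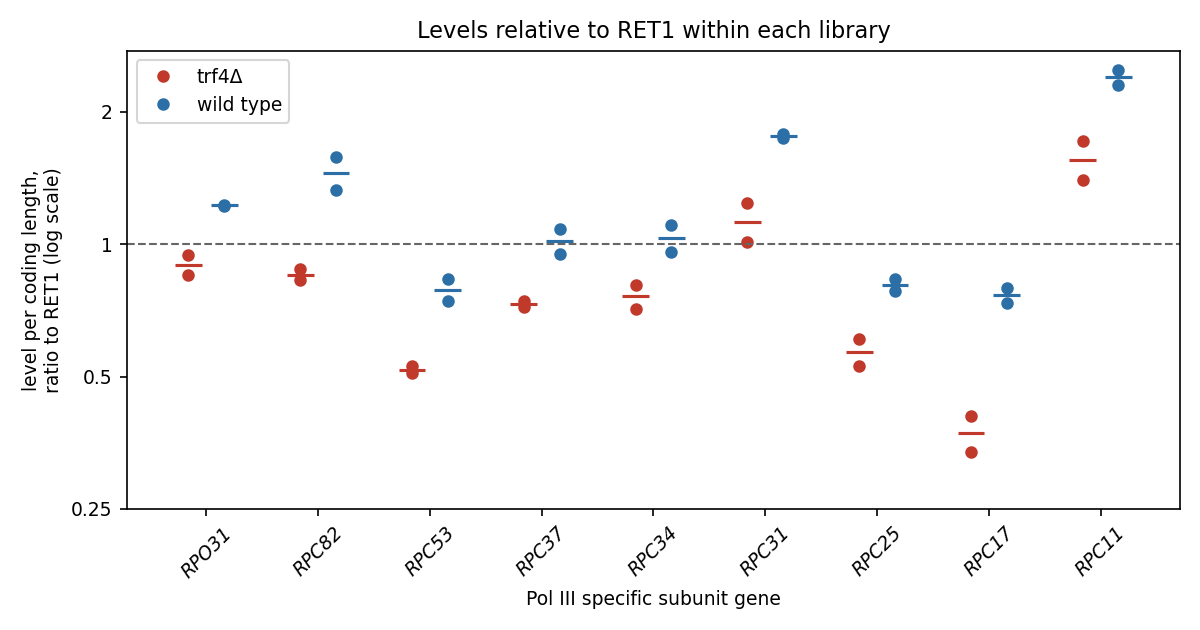
Level per coding length of the other 9 Pol III specific subunit genes as a ratio to RET1 in the same library (log scale), for 2 trf4Δ and 2 wild-type libraries. Points are libraries, short lines are group means and the dashed line marks the RET1 level. For each gene both trf4Δ points lie below both wild-type points.

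The calls depended on how libraries were scaled. Without TMM, on library size alone, the median of all features was 0.336 in place of 0.014, and 11.6% of all features were then called lower and 49.6% higher. Under this scaling 5 of the 10 members were called lower (RPC82, RPC53, RPC31, RPC17 and RPC11) and 1 was called higher (RET1, log2 fold change 0.29, adjusted p = 0.0242 in edgeR). RPO31 (-0.16), RPC37 (-0.19), RPC34 (-0.14) and RPC25 (-0.22) kept their sign and lost the call. A change of scaling moves all features by about the same amount, so the distance of the members from the median of all features, -0.60 under TMM, is not a test of the scaling.

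**Figure D4:**
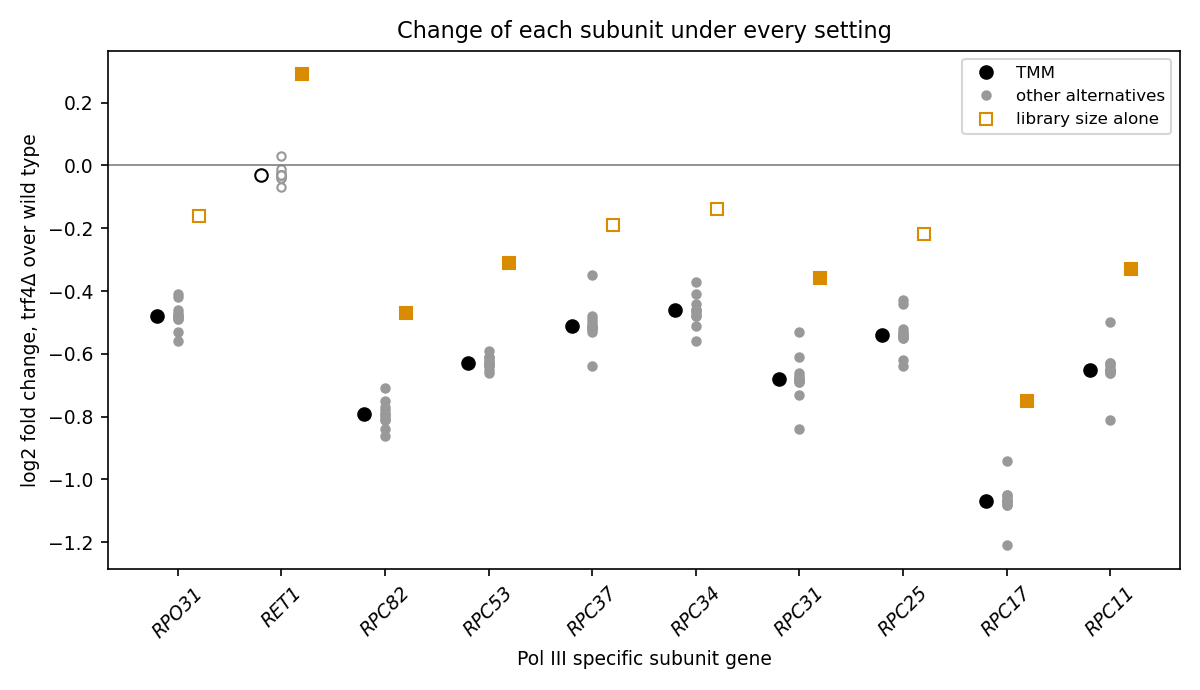
Log2 fold change (trf4Δ over wild type) of each Pol III specific subunit under the TMM scaling (black circles), library size alone (orange squares) and the other 11 alternatives (grey). Filled symbols passed the threshold. Library size alone shifts every gene upward and leaves 5 genes called lower and RET1 called higher.

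The change of a feature also moved with its abundance. With all tested features sorted by average abundance into 10 groups of like size, the median log2 fold change was 0.13 in the fourth group from the bottom, which holds RPC17, with 15.9% of its features called lower. In the seventh group, which holds 3 members, the median was -0.16 with 37.5% lower, and in the tenth, which holds RPO31 and RET1, it was -0.53 with 70.2% lower. The 9 called members were found in the fourth to the tenth group. RET1 was thus the member that departed from the features of its own abundance in the upward direction, while RPO31 was close to them. RPC17 departed downward, and the remaining members also lay below the median of their own group. In the seventh group these were RPC53 (-0.63), RPC37 (-0.51) and RPC34 (-0.46). RPC82 was at -0.79 against -0.26 in the ninth group, and RPC31 at -0.68 against -0.18 in the eighth. RPC11 was at -0.65 against -0.07 in the sixth, and RPC25 at -0.54 against -0.03 in the fifth. The part of abundance in the change of the members was not tested.

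Subunits shared with other polymerases were lower as well. RPC40 and RPC19, which form the assembly platform of both Pol I and Pol III, were both called lower in edgeR, at -0.75 and -0.58. All 5 subunits common to Pol I, II and III were called lower, against 28.9% of all features, with a median of -0.77. These 5 were in the eighth to the tenth abundance group, where 42.2% to 70.2% of features were called lower. RPO26 among them had 170 and 230 CPM in trf4Δ, against 481 and 512 CPM in the wild type, a log2 fold change of -1.31 (SE 0.14, adjusted p = 0.000211 in edgeR). RPB8 (-0.86), RPB10 (-0.77), RPB5 (-0.72) and RPC10 (-0.71) followed. On library size alone RPC19 (-0.26) and RPB10 (-0.45) lost their calls and no gene of these lists changed sign. Of the 17 subunits of Pol III, 16 were therefore called lower under TMM. The 17 were in the fourth to the tenth abundance group, where 15.9% to 70.2% of features were called lower.

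The general factors of Pol III did not move as a block. TFIIIC, with its 6 subunits TFC1, TFC3, TFC4, TFC6, TFC7 and TFC8, had a median of -0.04, close to that of all features. None of the 6 was called lower in edgeR (1 at an unadjusted p under 0.05, 0 with DESeq2), against 28.9% of all features. TFC7 was called higher, with 64.7 and 57.8 CPM in trf4Δ, against 51.4 and 48.5 CPM in the wild type (log2 fold change 0.29, adjusted p = 0.0362 in edgeR). That call was lost when the first trf4Δ library or either wild-type library was left out. The others were at -0.21 (TFC4), -0.21 (TFC8), -0.04 (TFC1), -0.04 (TFC3) and 0.07 (TFC6). On library size alone these values turn positive and 4 of the 6 are called higher, with a median of 0.28.

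For TFIIIB and TFIIIA, 3 of 4 genes were called lower in edgeR, against 28.9% of all features, namely SPT15 (-0.60), BDP1 (-0.54) and PZF1 (-0.44). SPT15 encodes the TATA-binding protein that all polymerases use, BDP1 encodes a TFIIIB subunit, and PZF1 encodes TFIIIA, which binds the 5S RNA genes. BRF1, the TFIIB-like subunit of TFIIIB, had 78.9 and 71.9 CPM in trf4Δ, against 76.6 and 80.9 CPM in the wild type, and was not called (-0.06, adjusted p = 0.589 in edgeR). On library size alone 0 of the 4 were called lower and BRF1 was called higher, at 0.26.

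Regulators of Pol III were mostly lower, and 1 kinase gene stood out. KNS1, a kinase that phosphorylates Rpc53 when Pol III is repressed, rose to 116 and 98.1 CPM in trf4Δ, against 52.3 and 52.7 CPM in the wild type. Its log2 fold change was 1.02 (SE 0.11, adjusted p = 0.000166 in edgeR), and it was 1.35 on library size alone. MAF1, the repressor itself, had 54.3 and 52.3 CPM in trf4Δ, against 57.4 and 60.0 CPM in the wild type, and did not pass (-0.14, adjusted p = 0.218 in edgeR). Of the 10 regulators, 8 were called lower and 1 higher, against 28.9% and 31.3% of all features. Most of the regulators were in the seventh to the ninth abundance group, where 37.5% to 50.1% of features were called lower. The phosphatase genes PPH3 (-0.63) and PSY2 (-0.58), whose products act on Maf1, and CKB2 (-0.43), a regulatory subunit of casein kinase 2, had the smallest p-values among the lower ones. The count of 8 fell to 5 without the first trf4Δ library or the second wild-type library, and to 1 on library size alone.

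Among 6 factors that act in the assembly or nuclear import of polymerases, 4 were called lower in edgeR, against 28.9% of all features. NPA3 (-0.60) and GPN3 (-0.53), related GTPases, and BUD27 (-0.59) had the smallest p-values. RBS1, whose product promotes Pol III assembly, was at -0.03 and was not called. On library size alone 1 of the 6 was called lower (NPA3) and 1 higher (IWR1, 0.48).

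The specific subunits of the other polymerases were compared by their counts and medians. Of the 7 Pol I specific subunits, 6 were called lower, against 28.9% of all features. Their median was -0.59, which resembled the -0.58 of the Pol III list. The remaining gene, RPA14, had unequal trf4Δ libraries at 40.6 and 28.3 CPM, against 38.8 and 35.4 CPM in the wild type. Of the 7 Pol II specific subunits, 5 were called lower, against the same 28.9%, with a median of -0.38. RPO21 (0.02) and RPB11 (0.20) were not called. Without either wild-type library, 3 Pol II subunits were called in place of 5. On library size alone 4 Pol I subunits and 1 Pol II subunit were called lower, and RPO21 and RPB11 were called higher. Most genes of both lists were in the seventh to the tenth abundance group, where 37.5% to 70.2% of features were called lower under TMM. Whether the lists differ from each other was not tested.

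**Figure D5:**
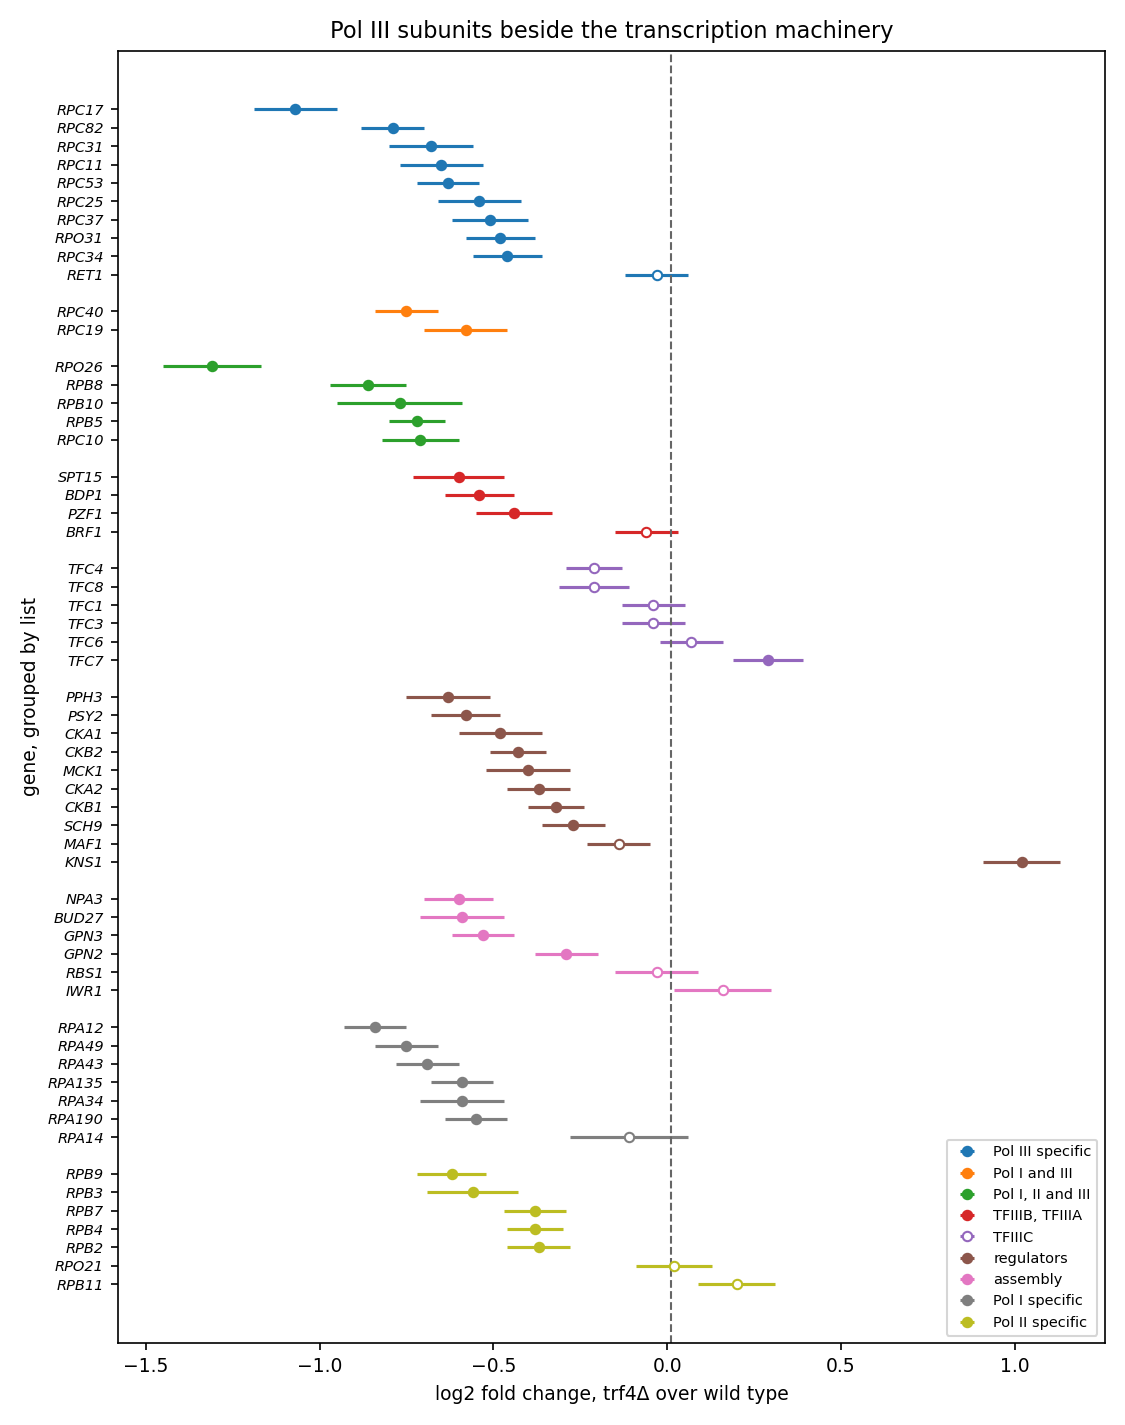
Log2 fold change (trf4Δ over wild type) with its SE for the Pol III specific subunits and for 8 related lists, under TMM. Filled points passed an adjusted p of 0.05 and the dashed line is the median of all features, 0.01. RET1, BRF1, most TFIIIC genes, RBS1, IWR1, RPA14, RPO21 and RPB11 lie near or above that line, and KNS1 is the only regulator called higher.

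The RNA products of Pol III were mostly outside the reach of these libraries. Of 275 nuclear tRNA features, 259 were listed at 0 in every library and 11 had enough counts to be tested. Of those, 4 were called higher and 0 lower in edgeR (0 also at an unadjusted p under 0.05 and with DESeq2). The 4 of 11 are 36.4%, near the 31.3% of all features called higher and below the 53.0% and 59.5% in the 2 groups of lowest abundance, so this count is no result about tRNAs. The summed counts of nuclear tRNA features were 1263 and 1131 in trf4Δ, against 705 and 684 in wild-type libraries. SNR6, the U6 RNA, was listed at 0 throughout, and SCR1 had 3 and 1 counts in trf4Δ, against 1 and 0 counts in the wild type. A listed 0 is not evidence that an RNA was missing from the cells, because the way reads were assigned to short and repeated genes is not given in the sources used here.

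Only RNA170 and SNR52 among the other Pol III transcripts had enough counts for a test. RNA170, a Pol III transcript of unknown function, had 520 and 496 counts in trf4Δ, against 90 and 75 counts in the wild type. Its log2 fold change was 2.38 (SE 0.22, adjusted p = 9.56e-05 in edgeR), in the direction opposite to the polymerase subunits. RNA170 was scarce, at 8.63 and 8.24 CPM in trf4Δ, against 1.77 and 1.46 CPM in the wild type. In the first and second abundance groups from the bottom, 53.0% and 59.5% of features were called higher, with medians of 1.18 and 0.72. The direction alone is therefore no contrast with the subunits. SNR52, a small nucleolar RNA with a Pol III promoter, had 485 and 745 counts in trf4Δ, against 358 and 397 counts in the wild type. It was not called, at 0.47 (SE 0.23, adjusted p = 0.106 in edgeR), and its trf4Δ libraries differed more than its wild-type libraries. Neither RNA overlaps another gene in RefSeq, and whether strand was used in counting is not stated, so reads from the opposite strand cannot be told apart.

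The libraries held between 53516242 and 57964567 counts, and the members had between 1119 and 32883 counts in any library. Markers of mating type were read as a check on the strains, since the labels name none. The 4 markers of a cells (STE2, BAR1, MFA1 and MFA2) summed to 641 and 573 CPM in trf4Δ, against 887 and 878 CPM in the wild type. The 3 markers of alpha cells summed to 9.31 and 13.7 CPM in trf4Δ, against 5.83 and 6.14 CPM in the wild type, so markers of a cells predominated in all 4 libraries. All 4 markers of a cells and 0 of 3 markers of alpha cells were called lower, against 28.9% of all features. STE3 was called higher (2.22), against 31.3%. On library size alone 1 of the 4 (MFA2) was called lower and all 3 markers of alpha cells were called higher. STE2, BAR1 and MFA2 were in the 2 groups of highest abundance, where 50.1% and 70.2% of features were called lower under TMM. MFA1 was in the group of RPC17, with 15.9% lower. Markers of alpha cells were in the 2 groups of lowest abundance, with 53.0% and 59.5% higher. Apart from MFA1, the calls under TMM thus had the direction of most called features of like abundance. The part of the marker changes in the change of the members was not tested.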

How the data were processed

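Total RNA of 2 trf4Δ and 2 wild-type yeast libraries was depleted of ribosomal RNA and sequenced in paired-end mode. The authors deposited whole-number counts per feature, without normalisation, in 1 column per library. STAR 2.5.3 and sacCer3 are named in the submitters' processing notes, and the counting program, annotation and strand setting are not given in the sources used here.

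The test used edgeR 4.0.16 under R 4.3.3. The filterByExpr filter left 6372 of 7445 features, TMM gave scaling factors of 1.125 and 1.111 in trf4Δ and of 0.9035 and 0.8855 in wild-type libraries, and the genotype term was tested by glmQLFit and glmQLFTest (two-sided). P-values were adjusted by Benjamini-Hochberg across the tested features, at a threshold of 0.05. All 10 members passed the filter. The SE was taken from the F statistic, as the absolute log2 fold change over the square root of F. Per-length levels used RefSeq coding lengths. Libraries had 53516242 to 57964567 counts, and a floor of 3 counts is 0.0518 to 0.0561 CPM, for counting error only.

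In simulated data (6348 genes tested), 66 genes were changed by 0.5 on the log2 scale and 67 by 1. Of these, 43.9% and 97.0% were recovered. The simulation gave all genes the same spread and held no shift of scaling between the groups. All members were named, as were the shared and general factors. Of other lists, up to 3 genes per direction with the smallest adjusted p were named, and genes beyond this were chosen after values were seen. Members and lists were chosen with earlier results of these data known. Alternatives were other scalings, filters, robust fitting, DESeq2 1.42.0, a threshold of 0.01 and leaving out each library. Windows and motifs were read in Python 3.11.15.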

Additional observations from a re-analysis of the deposited data

How the results depend on the processing

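Under 11 of the 12 alternatives, library size alone being the exception, the same 9 subunits were called lower and RET1 was not called (99 of 110 values lower and past the threshold). On library size alone 5 subunits were called lower and 1 higher, RET1 turned to 0.29, and the median of the 10 was -0.26. That scaling called 739 features lower and 3162 higher, against 1840 and 1992 with TMM, so 81.1% of its calls were higher, against 52.0%. TMM centres the bulk of the features (median 0.014, against 0.336), so this split does not tell which scaling is right. Leaving out each library in turn gave medians from -0.63 to -0.54, with 9 subunits called lower each time. The lone library left in an arm is then assumed to vary like the other group. RPC17 ranged from -1.21 without the second trf4Δ library to -0.94 without the first, and RPC37 from -0.64 without the second wild-type library to -0.35 without the first. RET1 was 0.03 without the first wild-type library. No paired analysis was possible because the labels number all libraries in 1 run, and no number is shared between the groups. In simulated data of this depth and replication, 43.9% of the changes of 0.5 on the log2 scale were recovered, and smaller changes were not simulated.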
